A study of Mus musculus with 10 samples.

Results

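The Slit ligands and their Robo receptors were followed in bulk RNA-seq of whole mouse kidneys at E13.5. The members are Slit1, Slit2, Slit3, Robo1, Robo2, Robo3 and Robo4. They were taken by gene name as the complete mouse Slit and Robo families, and make up 7 of the 35663 entries of the expression table, with 1 entry each. The kidneys came from 4 wild-type, 3 Foxd1GC control and 3 Ntn1SPKO samples, all labelled C57/b6. The Foxd1GC allele drives Cre in the stromal progenitors of the kidney cortex. The study also names the loss of 1 Foxd1 allele in Foxd1GC mice. Comparisons of either group that carries Foxd1GC with wild-type kidneys therefore include this difference. Controls carry this allele with intact Ntn1, and Ntn1SPKO kidneys (Foxd1-Cre; Ntn1c/c) carry it together with conditional alleles of Ntn1, which encodes the secreted guidance cue netrin 1. Cells without Foxd1-Cre history keep their Ntn1 alleles in this model. How many embryos went into a library is not given in the sources used here, so each p-value measures only the spread between these libraries.

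Slits are large secreted proteins that bind the first immunoglobulin domain of receptors such as Robo1 and Robo2 at the cell surface. Heparan sulphate holds ligand and receptor together, and the receptor then acts on the actin cytoskeleton through small GTPases. The pathway is best known for repelling axons at the midline. In the developing kidney Slit2 and Robo2 keep the nephrogenic mesenchyme, the source of the growth factor Gdnf, restricted along the nephric duct, and mouse embryos without either gene form extra ureteric buds. Robo4 is known mainly as an endothelial receptor, and Robo3 as a receptor of commissural neurons.

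The targeted gene was checked first. Ntn1 (GRCm38, chr11:68209364-68400823, minus strand) was at 32.0, 28.4, 27.1 and 46.3 FPKM (fragments per kilobase of transcript and per 1e6 fragments) in wild-type, at 40.7, 24.2 and 51.5 FPKM in Foxd1GC control and at 16.3, 13.1 and 10.7 FPKM in Ntn1SPKO kidneys. All 3 Ntn1SPKO libraries lay below all 7 others. The log2 fold change was -1.48 against Foxd1GC control (limma adjusted p = 0.447, exact permutation p = 0.1) and -1.30 against wild-type kidneys (limma adjusted p = 0.14, exact permutation p = 0.0571). In both tests 0.1 and 0.0571 are the smallest p-values that the number of libraries allows.

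Several libraries stood apart. All 8 kidney identity markers, among them Six2, Pax2, Wt1 and Foxd1, were above 0 in every library, with summed levels of 330 to 405 FPKM. Foxd1GC control replicate 3 had a summed level of 9 ureteric epithelium markers of 88.6 FPKM, against 206 to 250 FPKM in the other 9 libraries, and a summed level of 10 skeletal muscle markers of 393 FPKM, against 14.2 to 92.9 FPKM. The 7 erythroid markers summed to 15700 and 17340 FPKM in Foxd1GC control replicates 1 and 3 and to 17990 FPKM in Ntn1SPKO replicate 3. In the other libraries the erythroid sum was 4604 to 10490 FPKM. Wild-type replicate 3 had the largest summed FPKM over all entries, 1002638 against 795829 to 874966. Transcripts of 4 Y-linked genes were summed to tell the sex of the embryos. They reached 88.6 to 98.1 FPKM in wild-type replicate 3, Foxd1GC control replicate 2 and all 3 Ntn1SPKO libraries, and at most 1.02 FPKM in the others, so sex was uneven between groups. Since all 3 Ntn1SPKO libraries had these transcripts, a fit with embryo sex as a covariate sets them against the 1 library of the other group that has them, wild-type replicate 3 or Foxd1GC control replicate 2. Its values below are differences from that single library, not from the group. A member's difference is also given without Foxd1GC control replicate 3 or wild-type replicate 3 where that moved it by over 1.5 times.

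The 3 Slit genes are long and many-exonic, and each lies on a chromosome of its own. In the GENCODE M21 annotation of GRCm38, Slit1 spans chr19:41600257-41743665 (minus strand), Slit2 chr5:47983138-48307733 (plus strand) and Slit3 chr11:35121224-35708507 (plus strand), with coding sequences of 4593, 4626 and 4569 bases. The Robo genes lie in 2 pairs. Robo1 (chr16:72308306-73046095, plus strand) and Robo2 (chr16:73891839-74411825, minus strand) point towards each other 846 kb apart. Robo4 (chr9:37401897-37415115, plus strand) and Robo3 (chr9:37415669-37433246, minus strand) also point towards each other, with 553 bases between their annotated ends.

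Slit2 and Slit3 each carry a copy of the miR-218 hairpin in an intron, on the same strand as the host gene. The copy in Slit2 lies in intron 16 at chr5:48223942-48224051, and the copy in Slit3 in intron 14 at chr11:35616816-35616925. The mature sequences (RefSeq, GRCm38.p6) are printed because they are carried by the primary transcripts of 2 of the members measured here. Capitals mark the seed, bases 2 to 8.
miR-218-5p, from both hosts: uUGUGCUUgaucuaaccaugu
miR-218-1-3p, from Slit2: aAACAUGGuuccgucaagcacc
miR-218-2-3p, from Slit3: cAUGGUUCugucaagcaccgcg
Both hosts give the same 5p strand and thus the same seed, whereas the seeds of the 3p strands differ. miRNA levels were not analysed here, and the levels of the host genes below are those of their coding sequences.

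In all 10 libraries Robo2 was the most abundant member and Slit2 the most abundant ligand. Averaged over 10 libraries, FPKM was 109.6 for Robo2, 48.8 for Slit2, 28.7 for Robo1, 15.6 for Slit3, 4.10 for Slit1, 0.163 for Robo4 and 0.0200 for Robo3. FPKM are scaled to transcript length, so these levels can be compared between genes. Robo2 was above Slit2 and Slit2 above Robo1 in 10 of 10 libraries, and neither pair of ranges overlapped (at least 93.2 against at most 56.1 FPKM, and at least 35.2 against at most 33.0 FPKM). Robo1 was above Slit3 in 9 of 10 libraries, with Foxd1GC control replicate 3 as the exception, and their ranges overlapped. Slit3 was above Slit1 in 10 of 10 libraries. Robo4 was above Robo3 in 3 of 10 libraries, so the order of these 2 genes at the bottom is not set by these data. Among the entries above 0 in a library, the percentile of Robo2 was 93.4 to 95.8, that of Slit2 82.4 to 89.0, that of Robo1 74.6 to 81.1, that of Slit3 61.5 to 77.4 and that of Slit1 36.4 to 48.9.

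**Figure D1:**
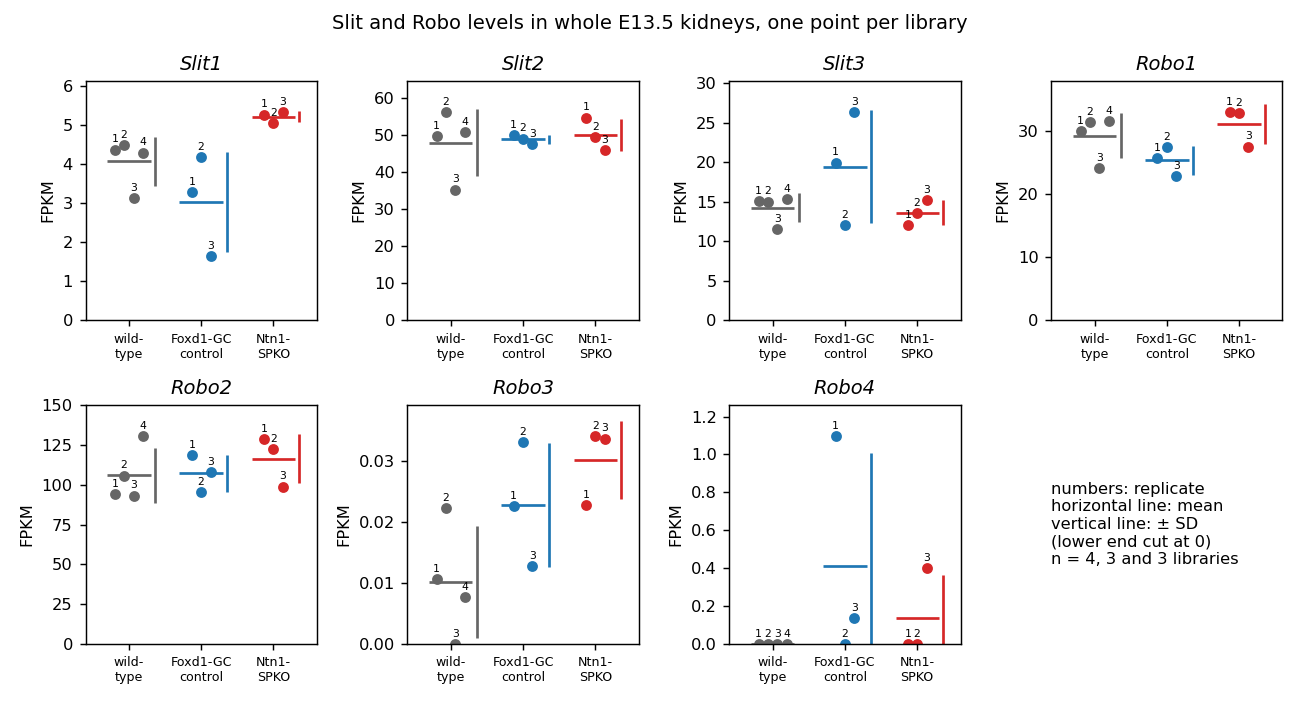
FPKM of the 7 members in each library, one panel per gene with its own linear axis from 0. Points are libraries numbered by replicate (4 wild-type in grey, 3 Foxd1GC control in blue, 3 Ntn1SPKO in red), horizontal lines are means and vertical lines ± SD. The Ntn1SPKO points for Slit1 lie between 5.05 and 5.32 FPKM, above those of every other library, while the groups overlap for Slit2, Slit3, Robo2 and Robo4.

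Of the 7 members, 5 were tested, since Robo3 and Robo4 fell under the minimum mean of 0.5 FPKM in each comparison. None of these 5 was called, which needed a limma adjusted p under 0.1 and a change of 2-fold or more. This holds for Ntn1SPKO against Foxd1GC control, where 0.0550% of 14550 genes were called, for Ntn1SPKO against wild-type, where 0.0485% of 14432 genes were called, and for Foxd1GC control against wild-type kidneys, where 0.00685% of 14594 genes were called. At an unadjusted limma p under 0.05, Slit1 and Robo1 passed in the first comparison (10.7% of all genes), Slit1 passed in the second (5.76% of all genes), and no member passed in the third (7.06% of all genes). The groups did not overlap for Slit1 and Robo1 in the first comparison (19.9% of all genes), for Slit1 in the second (7.10%) and for no tested member in the third (8.09%). Fold changes are on the scale of log2(FPKM+0.1). The 3 comparisons share libraries, so their values are given side by side.

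**Figure D2:**
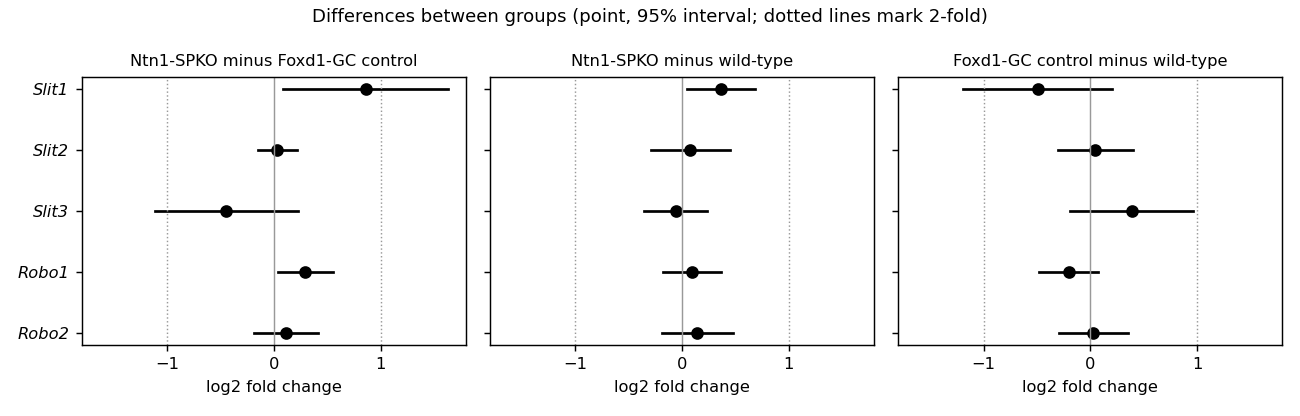
Log2 fold change of the 5 tested members in 3 comparisons, with its 95% interval from limma as a line. Dotted lines mark 2-fold. The intervals for Slit1 exclude 0 in both comparisons with Ntn1SPKO kidneys, before adjustment over all genes, and the interval for Slit2 between Ntn1SPKO and Foxd1GC control kidneys runs from -0.15 to 0.22.

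Slit1, the least abundant ligand, had the largest difference of the 5 tested members between Ntn1SPKO and either other group. It was at 4.37, 4.48, 3.13 and 4.29 FPKM in wild-type, at 3.27, 4.17 and 1.65 FPKM in Foxd1GC control and at 5.26, 5.05 and 5.32 FPKM in Ntn1SPKO kidneys. The Ntn1SPKO libraries were close to each other and above all 7 others. Means were 4.07 ± 0.629 (SD, n = 4), 3.03 ± 1.28 (SD, n = 3) and 5.21 ± 0.145 FPKM (SD, n = 3). It was higher by a log2 fold change of 0.86 (SE 0.32, 95% interval 0.08 to 1.63) against Foxd1GC control, with a limma adjusted p of 0.447 and an exact permutation p of 0.1. Against wild-type kidneys it was 0.36 (SE 0.14, 95% interval 0.05 to 0.68), with a limma adjusted p of 0.782 and an exact permutation p of 0.0571. Foxd1GC control was at -0.49 (SE 0.30) against wild-type kidneys, with a limma adjusted p of 0.669, and at -0.12 without its replicate 3. The difference in Slit1 was thus in 1 direction against both control groups, and in these fits with all libraries of both groups and no covariate it passed no adjusted test.

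The size of the first difference depended on Foxd1GC control replicate 3. Without it the log2 fold change of Slit1 was 0.49 (SE 0.13, limma adjusted p = 0.659), and without wild-type replicate 3 that against wild-type kidneys was 0.25 (SE 0.07, limma adjusted p = 0.49). In the fit with embryo sex as a covariate, Slit1 was at 0.31 (limma adjusted p = 1) in Ntn1SPKO kidneys relative to Foxd1GC control replicate 2 and at 0.72 (limma adjusted p = 0.0108) relative to wild-type replicate 3. The latter passes the adjusted threshold but not the 2-fold limit, and is set against the wild-type library with the lowest Slit1. Over all alternatives the log2 fold change stayed positive, and the limma adjusted p ran from 0.15 to 1 against Foxd1GC control and from 0.0108 to 0.999 against wild-type kidneys.

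The summed level of the ureteric epithelium markers moved with Slit1 in 1 library. Foxd1GC control replicate 3 had the lowest Slit1 level and the lowest marker sum. The sum of the 9 markers, all of them above 0 in every library, was 223 to 244 FPKM in wild-type, 88.6 to 236 FPKM in Foxd1GC control and 232 to 250 FPKM in Ntn1SPKO kidneys. Set against this sum, Slit1 was at 15.9, 17.7 and 18.6 per 1000 FPKM of ureteric markers in Foxd1GC control, at 18.6, 19.6, 12.8 and 19.3 in wild-type and at 22.7, 21.0 and 21.3 in Ntn1SPKO kidneys. On this scale Foxd1GC control replicate 3 was no longer below the other control libraries, and the 3 Ntn1SPKO libraries still lay above all 7 others. The part of the ureteric epithelium in the difference in Slit1 was not tested beyond these values. In whole kidneys, fewer cells of a type and less RNA per cell cannot be told apart.

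**Figure D3:**
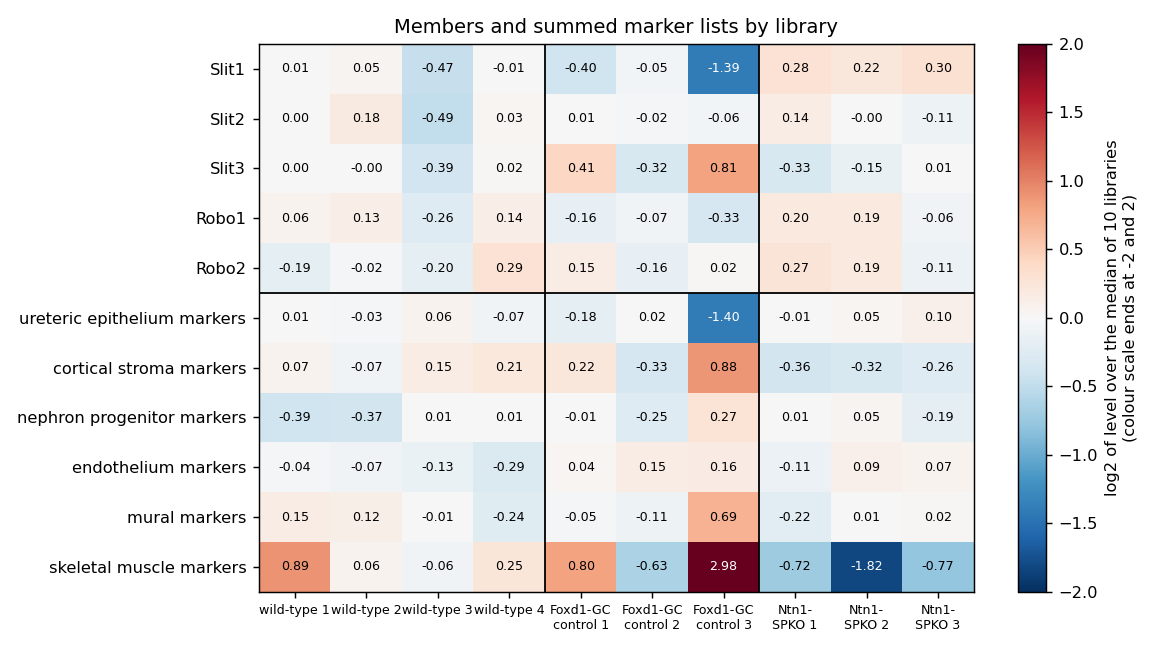
Log2 of the level over the median of 10 libraries, for the 5 tested members (upper rows, FPKM) and for summed marker lists (lower rows, summed FPKM), by library. Red is above and blue below the median, and the colour scale ends at -2 and 2. Foxd1GC control replicate 3 stands out, with -1.39 for Slit1, -1.40 for ureteric epithelium markers, 0.81 for Slit3, 0.88 for cortical stroma markers and 2.98 for skeletal muscle markers.

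Robo1 was the other member whose Ntn1SPKO and Foxd1GC control libraries did not overlap. It was at 30.1, 31.5, 24.1 and 31.6 FPKM in wild-type, at 25.8, 27.5 and 22.8 FPKM in Foxd1GC control and at 33.0, 32.9 and 27.6 FPKM in Ntn1SPKO kidneys. The gap between the 2 groups was narrow, from 27.5 to 27.6 FPKM, and the wild-type libraries spanned both. Robo1 had a log2 fold change of 0.29 against Foxd1GC control (SE 0.11, 95% interval 0.04 to 0.55), with a limma adjusted p of 0.447 and an exact permutation p of 0.1. Against wild-type kidneys it was 0.09 (SE 0.12, limma adjusted p = 0.948), and without wild-type replicate 3 it was 0.00 (9e-04). With embryo sex as a covariate it was 0.36 (limma adjusted p = 0.0882, with up to 1 under the other alternatives), which is the difference from wild-type replicate 3 alone. Foxd1GC control was at -0.20 (SE 0.12, limma adjusted p = 0.669) against wild-type kidneys, and at -0.13 without its replicate 3.

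Slit2 and Robo2, the ligand and receptor with the known part in ureteric budding, differed little between the groups. Slit2 was at 49.7, 56.1, 35.2 and 50.7 FPKM in wild-type, at 49.9, 49.0 and 47.4 FPKM in Foxd1GC control and at 54.6, 49.3 and 45.9 FPKM in Ntn1SPKO kidneys. Apart from wild-type replicate 3, all libraries lay between 45.9 and 56.1 FPKM. Between Foxd1GC control and wild-type kidneys the log2 fold change was 0.05 (SE 0.15, limma adjusted p = 0.929), and -0.0953 without wild-type replicate 3. The log2 fold change between Ntn1SPKO and Foxd1GC control kidneys was 0.03 (SE 0.08, 95% interval -0.15 to 0.22, limma adjusted p = 0.854), an interval well inside 2-fold, and 0.01 without Foxd1GC control replicate 3. Against wild-type kidneys it was 0.08 (SE 0.16, limma adjusted p = 0.956), and -0.06 without wild-type replicate 3. In the fit with embryo sex as a covariate, where wild-type replicate 3 alone is the reference, it was 0.50 (limma adjusted p = 0.038, with up to 0.999 under the other alternatives).

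Robo2 was at 94.0, 105.8, 93.2 and 130.8 FPKM in wild-type, at 118.7, 95.5 and 108.2 FPKM in Foxd1GC control and at 128.6, 122.3 and 98.8 FPKM in Ntn1SPKO kidneys. Each group had libraries on both sides of the overall mean. Its log2 fold change was 0.11 (SE 0.12, 95% interval -0.19 to 0.42, limma adjusted p = 0.668) against Foxd1GC control, 0.14 (SE 0.14, limma adjusted p = 0.947) against wild-type, and 0.03 (SE 0.14, limma adjusted p = 0.952) between Foxd1GC control and wild-type kidneys. Without wild-type replicate 3 the latter 2 values were 0.09 and -0.03.

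Slit3 varied most within the Foxd1GC control group. It was at 15.1, 15.0, 11.5 and 15.3 FPKM in wild-type, at 19.9, 12.0 and 26.3 FPKM in Foxd1GC control and at 12.0, 13.6 and 15.2 FPKM in Ntn1SPKO kidneys. Foxd1GC control replicates 1 and 3 were the highest of the 10 libraries, and replicate 2 was within the range of the other groups. The log2 fold change was -0.45 (SE 0.28, 95% interval -1.12 to 0.22, limma adjusted p = 0.49) against Foxd1GC control and -0.06 (SE 0.13, limma adjusted p = 0.956) against wild-type kidneys. The former was -0.19 without Foxd1GC control replicate 3 and -0.76 without Foxd1GC control replicate 2, and the difference from Foxd1GC control replicate 2 alone, as the fit with embryo sex gives it, was 0.17. Against wild-type kidneys without replicate 3 the value was -0.16. Between Foxd1GC control and wild-type kidneys the log2 fold change of Slit3 was 0.39 (SE 0.25, limma adjusted p = 0.675), and 0.13 to 0.69 over the alternatives.

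Within the Foxd1GC control group, stromal and muscle markers had the same order of libraries as Slit3. In Ntn1SPKO kidneys the stromal sum also had the order of Slit3 but the muscle sum did not, and in wild-type kidneys neither did, with replicate 3 lowest in Slit3 at a stromal sum of 267 FPKM. The 5 cortical stroma markers, which include Ntn1 itself, summed to 281, 191 and 441 FPKM in Foxd1GC control, to 229 to 278 FPKM in wild-type and to 187 to 200 FPKM in Ntn1SPKO kidneys, each marker being above 0 in every library. The 10 skeletal muscle markers summed to 87.0, 32.3 and 393 FPKM in Foxd1GC control and to 47.8 to 92.9 FPKM in wild-type kidneys. In Ntn1SPKO kidneys they summed to 14.2 to 30.4 FPKM. Of these markers 9 of 10 were above 0 in every library, and Myf5 was at 0 in Foxd1GC control replicate 2. Per 1000 FPKM of cortical stroma markers, Slit3 was at 71.0, 63.0 and 59.7 in Foxd1GC control, at 59.7, 65.6, 43.0 and 55.0 in wild-type and at 64.1, 70.3 and 75.8 in Ntn1SPKO kidneys. On this scale Foxd1GC control replicate 3 was within the range of the other libraries. The sum holds Ntn1, the targeted gene, and Foxd1, of which Foxd1GC carriers lack an allele. Lower levels of these genes raise the ratio by design, so it was not compared between groups. The part of either cell type in the level of Slit3 was not tested beyond these values.

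Robo3 and Robo4 had the lowest listed levels of the members. Robo3 was at 0.011, 0.022, 0 and 0.008 FPKM in wild-type, at 0.023, 0.033 and 0.013 FPKM in Foxd1GC control and at 0.023, 0.034 and 0.034 FPKM in Ntn1SPKO kidneys. Although the Ntn1SPKO and wild-type values do not overlap, no difference was read from levels this low. Robo4 was listed at 0 in all 4 wild-type libraries, in Foxd1GC control replicate 2 and in Ntn1SPKO replicates 1 and 2. It was at 1.10 and 0.135 FPKM in Foxd1GC control replicates 1 and 3 and at 0.401 FPKM in Ntn1SPKO replicate 3, so the values above 0 were found in 3 of 10 libraries from 2 groups. All 12 endothelial markers, among them Pecam1, Cdh5 and Kdr, were above 0 in every library. Their sum was 243 to 289 FPKM in wild-type, 306 to 332 FPKM in Foxd1GC control and 275 to 317 FPKM in Ntn1SPKO kidneys. Whether a listed 0 of Robo4 means that its transcript was absent, or comes from the quantification, was not tested. The 3 libraries with Robo4 above 0 also had the highest sums of the 7 erythroid markers. These were 15700, 17340 and 17990 FPKM, against 4604 to 10490 FPKM in the other libraries. This was seen after the values were known, and a link to Robo4 was not tested.

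The start of the gene was compared between Slit2 and Robo2, the most abundant ligand and receptor, and Robo4, which was listed at 0 in most libraries. The sequences are the RefSeq stretches of 150 bases that begin 250 bases before the annotated start (GRCm38.p6). They are chr5:47982905-47983054 on the plus strand for Slit2, chr16:74411926-74412075 on the minus strand for the Robo2 start next to the GENCODE gene, and chr9:37401722-37401871 on the plus strand for Robo4. Capitals mark each CG, the dinucleotide at which DNA is methylated in mammals, which reads the same on both strands.
Slit2: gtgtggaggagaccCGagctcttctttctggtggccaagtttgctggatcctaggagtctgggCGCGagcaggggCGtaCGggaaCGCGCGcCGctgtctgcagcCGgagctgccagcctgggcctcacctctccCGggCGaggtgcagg
Robo2: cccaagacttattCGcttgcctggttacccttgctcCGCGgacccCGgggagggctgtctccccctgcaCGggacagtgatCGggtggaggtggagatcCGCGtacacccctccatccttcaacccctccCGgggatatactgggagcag
Robo4: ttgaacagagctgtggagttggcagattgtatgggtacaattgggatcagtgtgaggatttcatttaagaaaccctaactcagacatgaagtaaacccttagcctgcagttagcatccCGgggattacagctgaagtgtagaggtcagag
Slit2 has 12 CG in these 150 bases, and 14.4% of 32851 promoters have as many or more. Robo2 has 9 (21.9%) and Robo4 has 1 (84.0%). Robo3, also among the members with the lowest listed levels, has 6 (32.4%). The Robo2 stretch shown has the most CG of the Robo2 starts in RefSeq, and the other 2 have 3 and 2. The count thus does not follow the level across the 6 members compared, and Slit1 had no stretch to count. Slit3, whose stretch overlaps an exon of the GENCODE annotation, has 16 (7.51%). Robo1 has 5 (37.2%), but its stretch, chr16:72662899-72663048, lies inside the gene as GENCODE places it and not at its start.

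Within the families the make-up was steady apart from the Slit1 and Slit3 shares. Slit2 made up 62.9% to 76.0% of the summed Slit FPKM and Robo2 75.8% to 82.5% of the summed Robo FPKM. The ratio of summed Slit to summed Robo FPKM was 0.491 ± 0.0724 (SD, n = 4) in wild-type, 0.535 ± 0.0369 (SD, n = 3) in Foxd1GC control and 0.469 ± 0.0478 (SD, n = 3) in Ntn1SPKO kidneys, and these ranges overlap. The share of Slit1 among the Slits was 5.93% to 6.32% in the 4 wild-type libraries, including wild-type replicate 3 with 6.29%, although all 3 Slits were low there. It was 4.48%, 6.40% and 2.18% in Foxd1GC control and 7.32%, 7.43% and 8.01% in Ntn1SPKO kidneys, again above all 7 other libraries. Slit3 took 34.9% of the Slit sum in Foxd1GC control replicate 3 and 16.7% to 27.3% elsewhere.

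**Figure D4:**
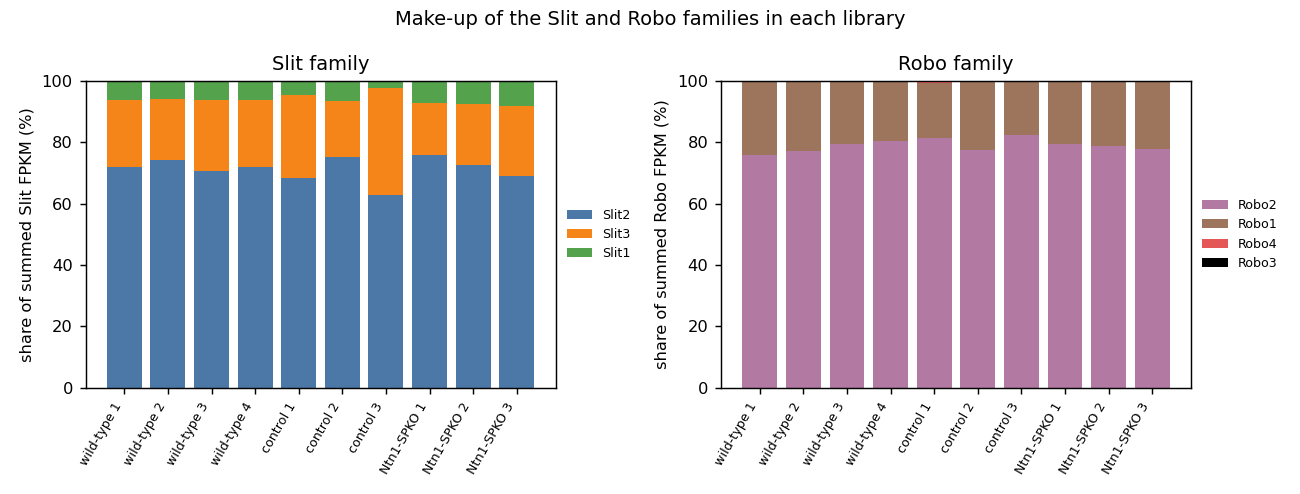
Share of each gene in the summed FPKM of its family (%), stacked to 100, for each library, with the Slits on the left and the Robos on the right. Slit2 and Robo2 fill most of each bar, Slit1 takes 7.32% to 8.01% in the 3 Ntn1SPKO libraries and 2.18% in Foxd1GC control replicate 3, and Robo3 is too small to be seen.

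The partners of the pathway were followed in 4 lists. None of their genes was called in any comparison. The other ligands and partners of Robo receptors were Nell2, Flrt3, Unc5b, Dcc and Ntn1. Apart from Ntn1, the highest was Unc5b, a netrin receptor that also binds Robo4, at 0.19 against Foxd1GC control and 0.26 against wild-type kidneys on the log2 scale, with limma adjusted p-values of 0.568 and 0.882. Without Foxd1GC control replicate 3 the former was 0.03, and without wild-type replicate 3 the latter was 0.17. In the latter comparison the Unc5b groups did not overlap, as for 7.10% of all genes, with 9.34, 9.06 and 9.83 FPKM in Ntn1SPKO and at most 8.98 FPKM in wild-type kidneys.

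Among 16 genes for heparan sulphate proteoglycans, their synthesis and dystroglycan, 6 were higher and 10 lower in Ntn1SPKO than in Foxd1GC control kidneys, with a median log2 fold change of -0.02 beside 0.01 for all genes tested. Against wild-type kidneys 8 were higher and 8 lower (median 0.00). Without wild-type replicate 3 this became 4 higher and 12 lower. The lowest member in both was the glypican Gpc4, a cell surface heparan sulphate proteoglycan, at 8.68, 8.27 and 7.56 FPKM in Ntn1SPKO kidneys, 12.3, 8.72 and 19.3 FPKM in Foxd1GC control and 9.67 to 11.5 FPKM in wild-type kidneys. On the log2 scale Gpc4 was at -0.64 (SE 0.27, limma adjusted p = 0.447) against Foxd1GC control and -0.38 (SE 0.09, limma adjusted p = 0.317) against wild-type kidneys. The former was -0.34 (limma adjusted p = 0.673) without Foxd1GC control replicate 3. Groups did not overlap for 3 of 16 genes in the former (Gpc4, Gpc5 and Dag1, beside 19.9% of all genes) and for 2 of 16 in the latter (Gpc4 and Gpc3, beside 7.10%). The highest were Dag1, dystroglycan, at 0.19 in the former (0.09 without Foxd1GC control replicate 3) and the glypican Gpc6 at 0.20 in the latter (0.12 without wild-type replicate 3).

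Among 17 intracellular effectors, such as the srGAP proteins, the adaptor Nck1 and the GTPases Rac1 and Cdc42, 11 were higher and 6 lower in Ntn1SPKO than in Foxd1GC control kidneys (median log2 fold change 0.06). Rac1, Enah and the exchange factor Sos1 were higher at an unadjusted p under 0.05, at 0.13, 0.23 and 0.26 with limma adjusted p-values of 0.447. Those are 3 of 17 genes, beside 10.7% of all genes tested. Without Foxd1GC control replicate 3 the count was 1 of 17, beside 7.23% of all genes. The lowest was Srgap3 at -0.26 and the highest the kinase Pak1 at 0.32 (0.21 without Foxd1GC control replicate 3). Against wild-type kidneys 9 were higher and 8 lower, the lowest again Srgap3 at -0.14 (-0.25 without wild-type replicate 3) and the highest Srgap2, a GTPase-activating protein that binds Robo1, at 0.37 (SE 0.09, limma adjusted p = 0.397). Srgap2 was at 35.4, 28.7 and 29.6 FPKM in Ntn1SPKO and at 23.0 to 26.1 FPKM in wild-type kidneys. In Foxd1GC control it was at 30.3, 25.6 and 21.6 FPKM, which overlaps Ntn1SPKO. The log2 fold change of Srgap2 between these groups was 0.28 (limma adjusted p = 0.456), and 0.16 without Foxd1GC control replicate 3.

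The last list held 11 genes with a part in the Gdnf and Ret axis of ureteric budding. Slit2 and Robo2 are known to restrain this axis, but the list was not limited to genes that they restrain. A shared sign in the list is thus no measure of the activity of the axis. All 11 had a positive log2 fold change in Ntn1SPKO against Foxd1GC control kidneys, with a median of 0.18 beside 0.01 for all genes, of which 51.2% were positive, but 0 passed even the unadjusted p under 0.05. Against wild-type kidneys all 11 were again positive (median 0.13 beside 0.00, and 51.1% of all genes positive), and Foxc2, Eya1 and Ret were higher at an unadjusted p under 0.05, beside 5.76% of all genes. Without Foxd1GC control replicate 3 the first count was 11 of 11 with a median of 0.12, and without wild-type replicate 3 the second was 9 of 11 with a median of 0.09. Between Foxd1GC control and wild-type kidneys 5 were positive and 6 negative (median -0.01). The ureteric epithelium markers moved with this list. In Ntn1SPKO against Foxd1GC control kidneys 9 of 9 markers were positive with a median of 0.66, and without Foxd1GC control replicate 3 these were 7 of 9 with a median of 0.18. Against wild-type kidneys 6 of 9 were positive (median 0.08). Ret, Gata3 and Wnt11 are in both lists, and the part of the ureteric epithelium in the values of the list was not tested.

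Ret, the Gdnf receptor of the ureteric tips, was the highest of the list in both comparisons with Ntn1SPKO kidneys. It was at 16.0, 16.2, 14.1 and 17.2 FPKM in wild-type, at 16.0, 16.1 and 4.09 FPKM in Foxd1GC control and at 18.5, 20.9 and 19.8 FPKM in Ntn1SPKO kidneys. As for Slit1, the 3 Ntn1SPKO libraries were above all 7 others and Foxd1GC control replicate 3 was the lowest. The log2 fold change of Ret was 0.94 (SE 0.52, limma adjusted p = 0.466) against Foxd1GC control, 0.29 (limma adjusted p = 0.655) without replicate 3 of that group, and 0.31 (SE 0.09, limma adjusted p = 0.503) against wild-type kidneys. The lowest of the list was the transcription factor Etv4 with 0.01 in both comparisons (-0.01 in the latter without wild-type replicate 3). Gdnf itself was at 25.0, 24.8 and 21.3 FPKM in Ntn1SPKO, 22.6, 22.1 and 20.8 FPKM in Foxd1GC control and 17.6 to 25.5 FPKM in wild-type kidneys, so its groups overlapped.

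**Figure D5:**
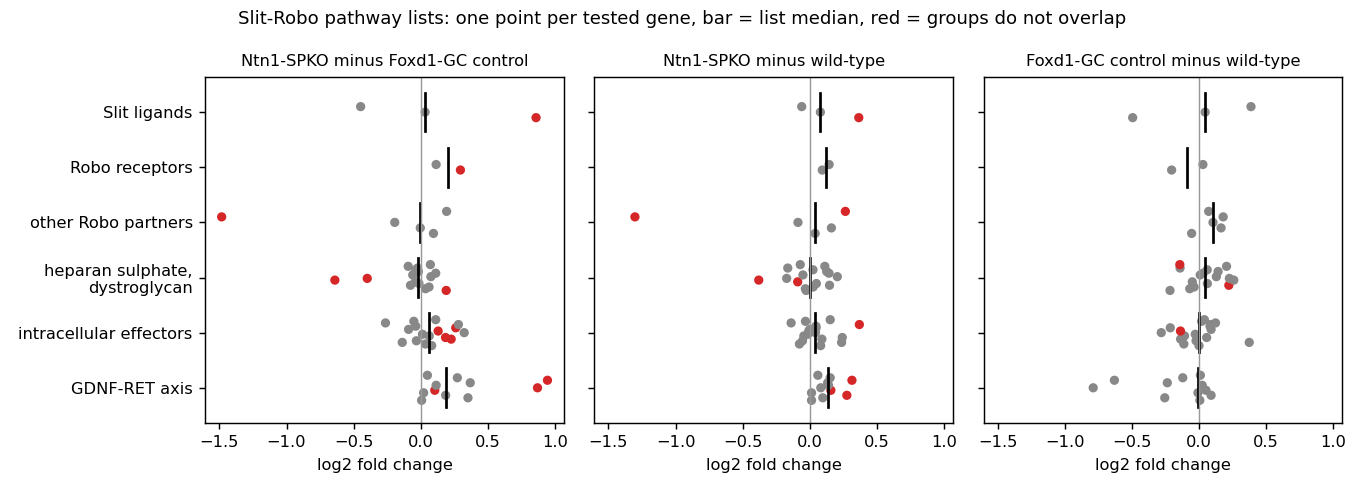
Log2 fold change of each tested gene of the Slit and Robo families and of 4 partner lists in 3 comparisons, 1 point per gene. Black bars are list medians, and red points are genes whose groups do not overlap. The 11 genes of the Gdnf and Ret axis lie above 0 in both comparisons with Ntn1SPKO kidneys, and the point furthest to the left is Ntn1 at -1.48 and -1.30.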

How the data were processed

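Whole kidneys of E13.5 embryos were sequenced in 10 libraries (4 wild-type, 3 Foxd1GC control, 3 Ntn1SPKO). According to the methods of the study, the authors estimated abundance with Salmon against coding sequences of Ensembl GRCm38, imported it with tximport and tested it with DESeq2. Reads were converted with bcl2fastq 2.17.1.14, per the submitters' processing notes. The deposited values used here are FPKM. Median-of-ratios factors were the same, 1.0018, in all 10 libraries, so the values already carry that scaling and were not rescaled. FPKM keep no counts, so no counting error is given and an exact 0 is only a listed 0. The 96.3% of entries whose symbol is in GENCODE M21 could be placed.

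Members and lists were chosen with earlier results of these data known. Groups were compared pairwise over all genes whose mean in the libraries of a fit reached 0.5 FPKM, on log2(FPKM+0.1) with limma 3.58.1 (R 4.3.3, intensity trend, Benjamini-Hochberg adjustment), after the fit had been tested on simulated data. Calls needed an adjusted p under 0.1 and a change of 2-fold or more. Single genes also had a two-sided exact permutation test over libraries (scipy 1.17.1) on the same scale. All members are named with their values. Of the lists, the lowest and highest member in each comparison with Ntn1SPKO kidneys and the list counts are given. Enah, Rac1, Sos1, Gpc3, Gpc5, Foxc2, Eya1, Gata3, Wnt11 and Gdnf were named after their values were seen. Alternatives were other pseudocounts, filters, scalings, fits with all libraries, the replicate number or embryo sex (a Y-linked sum over 10 FPKM), and leaving out each library.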

Additional observations from a re-analysis of the deposited data

Results flagged for a closer look

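Wild-type replicate 3 lay far below the other wild-type libraries for 2 ligands. Slit1 was at 3.13 FPKM there, and the gap to the next library was 0.858 of the group's range. Slit3 was at 11.5 FPKM, with a gap of 0.924 of the range. Of 7 genes tested in the wild-type group (Ntn1 and all members but Robo4), 2 stood apart in this way. For a single gene chance gives about 1 in 20, but both fell in the same library and are not independent. Slit2 and Robo1 were also lowest in this library, at 35.2 and 24.1 FPKM, while the share of Slit1 among the Slits was 6.29% there and 5.93% to 6.32% in the group. The groups of 3 libraries are too small for this test, so Foxd1GC control replicate 3 was not assessed by it.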

How the results depend on the processing

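In 271 of 280 refits of the tested members the direction and the side of the calling threshold were kept, and in no refit was a member called. The other 9 turned the direction round, most from a value near 0. The exception is Slit3 with embryo sex, turned from -0.45. Slit2 between Ntn1SPKO and Foxd1GC control ran from -0.034 without Ntn1SPKO replicate 1 to 0.0908 when single libraries were left out, against wild-type from -0.0632 without wild-type replicate 3 to 0.1607, and between Foxd1GC control and wild-type from -0.0953 without wild-type replicate 3 to 0.1285. Slit3 between Ntn1SPKO and Foxd1GC control was 0.17 with embryo sex (set against Foxd1GC control replicate 2 alone), and against wild-type 0.23 with embryo sex and -0.1601 to 0.0241 when single libraries were left out, the latter without Ntn1SPKO replicate 1. Robo2 between Foxd1GC control and wild-type ran from -0.0461 to 0.1346, and was negative without wild-type replicate 1, wild-type replicate 3 or Foxd1GC control replicate 1. The cause was not tested.

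Counts over all genes moved more. For Ntn1SPKO against Foxd1GC control, 8 genes were called, but 21 with no filter, 0 with all 10 libraries in one fit, 4 with embryo sex and 3 to 78 when 1 library was left out. Of Ntn1SPKO against wild-type, 7 were called, but 2 with a pseudocount of 1, 18 with no filter, 12 with no intensity trend, 0 with all 10 libraries, 187 with embryo sex and 1 to 20 when 1 library was left out. Of Foxd1GC control against wild-type, 1 was called, but 2 with a pseudocount of 1 or 0.01, 9 with no filter, 4 with no intensity trend, 0 with all 10 libraries and 3 to 20 when 1 library was left out. At an unadjusted p under 0.05 the counts were 1551, 832 and 1031, with embryo sex 517, 4349 and 1607. The second was 1314 with no filter and the third 676 at the same total FPKM. Leaving out 1 library gave 689 to 3428 in the first and 538 to 2279 in the third.

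With the replicate number as a block, the replicate block fit called 4 genes in the first comparison and 0 in the third. Deviations of same-numbered libraries correlated at -0.047 to 0.076, so the numbers do not pair the libraries. Leaving out Foxd1GC control replicate 3 or wild-type replicate 3 from the list counts was chosen after seeing the data.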

Other observations

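The genes whose levels followed each member most closely over the 10 libraries were listed as a description, among 13142 genes whose mean reached 1 FPKM. They were chosen as the 3 highest Pearson r, so no p is given, and all points share the libraries that stand apart. For Slit1 they were Xpo7 (r = 0.988, Spearman's rho = 0.988), Srsf4 (0.984, 0.915) and Mthfd1l (0.984, 0.927). For Slit2 they were Cep120 (r = 0.978, rho = 0.964), Clock (0.973, 0.915) and Smg6 (0.970, 0.552). For Slit3 they were Nrk (r = 0.971, rho = 0.915), Tmem63a (0.966, 0.806) and the fibrillar collagen gene Col5a1 (0.963, 0.964). For Robo1 they were Jmy (r = 0.984, rho = 0.952), Fem1b (0.984, 0.952) and Xpr1 (0.983, 0.964). For Robo2 the values were lower, with Fam120b at r = 0.934 (rho = 0.915), Dock5 at 0.915 (0.927) and E2f1 at 0.907 (0.927).

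The pattern of Robo4, with 1.10 FPKM in 1 library and a listed 0 in 7, is uncommon in this table. Of 12913 protein-coding entries with at least 1 FPKM in a library, 108 were listed at 0 in at least 1 library and 25 (0.194%) in at least 7.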
